A study of Mus musculus with 4 samples.

Results

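The genes described here are 4 glutathione peroxidases (Gpx1, Gpx2, Gpx3 and Gpx4) and 6 peroxiredoxins (Prdx1 to Prdx6) in sorted cells of the mouse colon. They were chosen by name, as every non-control array probe that carried 1 of these 10 gene names, and no measured value entered the choice. They had 16 probes, of which 14 gave a signal clear of the background. Of the 10 genes, 9 could be tested, among 14801 genes tested in all, and Gpx3 could not.

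Both families remove hydrogen peroxide and organic peroxides from cells. Glutathione peroxidases take electrons from glutathione, and most of them carry selenocysteine, the selenium amino acid, at the active site. Peroxiredoxins use a cysteine that is mostly restored by thioredoxin and thioredoxin reductase. Gpx2 is known as a peroxidase of the gut epithelium with high levels in crypts, Gpx1 is the widespread cytosolic form, Gpx3 is a secreted plasma form, and Gpx4 reduces lipid hydroperoxides in membranes and so guards against ferroptosis. Prdx1 and Prdx2 act in the cytosol, Prdx3 in mitochondria and Prdx4 in the endoplasmic reticulum. Prdx5 is found in several compartments, and Prdx6 is a form with a single active cysteine that also has phospholipase activity.

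RNA came from crypts of the normal colon of adult Lgr5-EGFP-ires-CreERT2 knock-in mice, in which GFP is made from the locus of Lgr5, a gene that marks the stem cells at the crypt base. Cells were isolated by fluorescence-activated sorting, 1 population for GFP and the other with a PE-conjugated antibody for a high level of the surface protein CD24, a gate that the design ties to a subset of goblet cells. No treatment, sex, age in weeks or number of animals is given in the labels, and both populations share the knock-in allele. Total RNA extracted with Trizol (300 ng per channel) was labelled after linear amplification, and both RNAs were hybridised together on 4 arrays that form 2 replicates, each with a first array (Lgr5-GFP RNA in Cy3) and a dye swap (Lgr5-GFP RNA in Cy5). Since the labels name no separate animals for the replicates, the p-values reflect the spread between these samples alone, and that spread may be technical.

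Ratios are given as log2 of the RNA labelled Lgr5-GFP relative to that labelled CD24hi, and by this measure the genes behind the sort went against the labels. Lgr5 itself was lower in the RNA labelled Lgr5-GFP, with a log2 ratio of -3.41 ± 0.29 (SD, n = 2 replicates, with no value on the dye swap of replicate 1; adjusted p = 0.000625 by limma). Cd24a, which encodes CD24, was higher there at 2.12 ± 0.30 (SD, n = 2), as was Muc2, the main gel-forming mucin of goblet cells, at 3.76 ± 0.58 (SD, n = 2). Lgr5 cleared the background in the RNA labelled Lgr5-GFP on 3 of 4 arrays and in the RNA labelled CD24hi on all 4. It was thus tested only through the population in which it was brighter, while Cd24a and Muc2 were clear of the background in both. The populations are therefore named only as the RNA labelled Lgr5-GFP and the RNA labelled CD24hi, and every sign below would turn if the labels were exchanged. The dye swap of replicate 1 also stood apart. On it 75.3% of gene spots were marked as outliers by the scanner software, against 0.231% to 0.399% on the other arrays, and its median spot brightness was 4377 and 1358 in its channels, against 94.2 to 197 elsewhere. Nearly every spot on it passed as above background, so this array adds little to the counts of 4 arrays above background given here.

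Where the arrays read these transcripts may bear on the values, because a probe that crosses an intron matches spliced RNA in full and genomic DNA only in parts. How the bases of such a probe are split between exons was not analysed. By the positions in the array files (build mm9), 4 of the 16 probes spanned more genome than their own 60 bases, and these lay in Gpx4 (chr10:79518691-79518842, + strand), Prdx1 (chr4:116365578-116366348, + strand), Prdx2 (chr8:87494188-87494338, + strand, a probe next to the brighter one used for the gene) and Prdx5 (chr19:6981601-6982035, - strand). They are written as the array design gives them, in lower case.
Gpx4: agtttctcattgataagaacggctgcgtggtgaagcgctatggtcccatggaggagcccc
Prdx1: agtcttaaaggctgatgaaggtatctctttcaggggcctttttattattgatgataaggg
Prdx2: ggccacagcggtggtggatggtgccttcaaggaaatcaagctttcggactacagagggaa
Prdx5: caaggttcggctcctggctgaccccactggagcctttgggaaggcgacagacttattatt
The genomic span was 152 bases for Gpx4, 771 for Prdx1, 151 for Prdx2 and 435 for Prdx5. The other 12 probes each covered 60 contiguous bases, and which exon or untranslated region they fall in was not analysed here. Probes of different members were unlike each other: over 110 pairs aligned without gaps, the closest, the bright Prdx2 probe and the Prdx5 probe, shared 26 of 56 overlapping bases.

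The promoters of the members were searched for the core of the antioxidant response element, the site through which the transcription factor Nrf2 acts on many antioxidant genes. The letters searched were TGACNNNGC, on both strands, in the 250 bases before the gene start (RefSeq, GRCm38.p6). Promoters were matched by symbol for 9 of the 10 members, all but Prdx6. Only Prdx1 among these 9 members held a match, while 10.2% of 32851 promoters of the same length did. The Prdx1 promoter (chr4:116685349-116685598, + strand) is shown with the match in capitals, which lies on the reverse strand and starts 133 bases before the gene start, beside that of Prdx5 (chr19:6910107-6910356, - strand), the member that was higher in the RNA labelled Lgr5-GFP, in which these letters do not occur.
Prdx1 promoter: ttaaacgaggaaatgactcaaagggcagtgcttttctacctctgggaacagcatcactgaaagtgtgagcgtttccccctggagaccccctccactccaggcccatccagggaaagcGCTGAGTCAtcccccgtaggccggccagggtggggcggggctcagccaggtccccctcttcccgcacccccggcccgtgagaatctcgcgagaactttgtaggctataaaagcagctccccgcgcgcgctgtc
Prdx5 promoter: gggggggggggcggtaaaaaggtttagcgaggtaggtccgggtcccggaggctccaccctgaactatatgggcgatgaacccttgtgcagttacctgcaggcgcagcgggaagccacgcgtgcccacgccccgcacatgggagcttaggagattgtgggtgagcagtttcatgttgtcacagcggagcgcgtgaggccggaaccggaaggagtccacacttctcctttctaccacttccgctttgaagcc
A match of letters is a description of the sequence and not a measured binding site.

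Most of the peroxiredoxins and Gpx2 were lower in the RNA labelled Lgr5-GFP, and Prdx5 alone among the 9 tested members was called higher there. A gene was called where limma gave a Benjamini-Hochberg adjusted p under 0.05 over all 14801 genes. By this rule 6 of 9 members were called, 5 lower (Gpx2, Prdx1, Prdx2, Prdx3 and Prdx4) and 1 higher (Prdx5). Of all genes tested 47.2% were called, 25.5% lower and 21.7% higher, so many genes differed between these populations and the members' count is to be read against that share. The median log2 ratio of the 9 members was -0.38, against -0.07 over all genes tested. The peroxiredoxins had 5 of 6 members called and a median of -0.50, and the glutathione peroxidases 1 of 3 and a median of -0.19. No test was made between the families. Without the first array of replicate 1, limma could test 8 members and called 0 of them (3 at an unadjusted p under 0.05, 16.3% of all genes called), and without the dye swap of that replicate it called 7, with 57.7% of all genes called. With the background model fitted on all spots, 1 member (Prdx4) and 9.37% of all genes were called. In bulk RNA such as this, fewer cells of a type and less RNA per cell cannot be told apart.

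**Figure D1:**
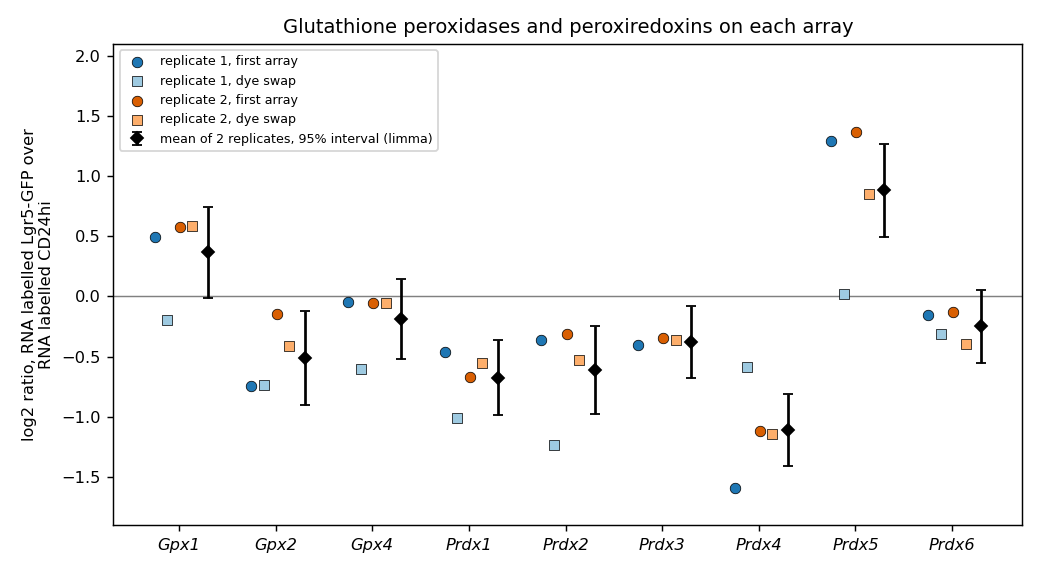
Log2 ratio (y axis, the RNA labelled Lgr5-GFP relative to that labelled CD24hi) of the 9 tested members (x axis) on each of the 4 arrays (circles, first arrays; squares, dye swaps), with the mean of 2 replicates and its 95% interval from limma (diamonds and bars). The interval lies apart from 0 for Gpx2, Prdx1, Prdx2, Prdx3, Prdx4 and Prdx5, and the dye swap of replicate 1 is the lowest of the 4 arrays for Gpx1, Gpx4, Prdx1, Prdx2 and Prdx5.

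Of the cytosolic peroxiredoxins, Prdx1, a peroxidase that also serves in thiol signalling, had log2 ratios of -0.47 (first array) and -1.01 (dye swap) in replicate 1 and of -0.67 and -0.55 in replicate 2. It was below 0 on all 4 arrays, and the mean of -0.67 ± 0.092 (SD, n = 2 replicates) made it 1.60-fold lower, with an interval of -0.98 to -0.37 and an adjusted p of 0.00831. The call was lost without the first array of replicate 1 (-0.81, adjusted p = 0.113), which left that replicate with its dye swap only. Prdx2, the close cytosolic relative that is also abundant in red blood cells, stood at -0.37, -1.24, -0.31 and -0.53 on the arrays in the same order. Here too all 4 arrays were below 0, and the dye swap of replicate 1 lay far under the other 3. The mean was -0.61 ± 0.27 (SD, n = 2; 1.53-fold lower, interval -0.97 to -0.25, adjusted p = 0.0194). Without that dye swap the ratio was -0.39 (adjusted p = 0.0177), a smaller difference that was still called, and without the first array of replicate 1 it was -0.83 (adjusted p = 0.101) and not called.

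The bright Prdx2 probe was printed at 10 spots on each array, which gives a view of the spread within an array. The SD over its spots was 0.050, 0.069, 0.117 and 0.057 on the 4 arrays (with 9 of 10 spots usable on the first array of replicate 2). In replicate 1 its spots ran from -1.32 to -1.13 on the dye swap and from -0.42 to -0.24 on the first array. The repeated spots of these 2 arrays of 1 replicate thus did not overlap, so the gap between the arrays was larger than the spread between spots.

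Prdx3, the mitochondrial peroxiredoxin, had no usable spot on the dye swap of replicate 1 and log2 ratios of -0.40, -0.35 and -0.36 on the other arrays. All 3 values were close together and below 0. The mean of -0.38 ± 0.033 (SD, n = 2; 1.30-fold lower, interval -0.68 to -0.077) passed the threshold narrowly, at an adjusted p of 0.0483. Replicate 1 rests here on its first array, so that replicate was not dye-balanced, and the call was lost without the first array of replicate 2 (adjusted p = 0.0623) or its dye swap (0.0596).

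Prdx4, the peroxiredoxin of the endoplasmic reticulum that uses hydrogen peroxide made during disulfide formation, had the lowest ratio of the members. It stood at -1.60, -0.59, -1.12 and -1.14, below 0 on all 4 arrays, with the dye swap of replicate 1 nearest to 0. The mean of -1.11 ± 0.029 (SD, n = 2) placed it 2.16-fold below the RNA labelled CD24hi (interval -1.41 to -0.81, adjusted p = 0.00182). Without the dye swap of replicate 1 the ratio was -1.36 (adjusted p = 0.000192), and without the first array of that replicate it was -0.86 (adjusted p = 0.0866) and not called. The scanner's spot brightness, before any dye correction, was 1412 in the RNA labelled Lgr5-GFP against 6294 in the RNA labelled CD24hi on the first array of replicate 1, and in replicate 2 it was 963 against 3037 on the first array and 2159 against 4367 on the swap. Only the swap of replicate 1 had the opposite channel brighter before the dyes were normalised, at 15493 against 7573.

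Prdx5, an atypical peroxiredoxin of mitochondria, peroxisomes and cytosol, ran the other way. Its log2 ratios were 1.29, 0.020, 1.37 and 0.85, above 0 on all 4 arrays but barely so on the dye swap of replicate 1. On that swap the Prdx5 spot read 5134 for the RNA labelled Lgr5-GFP against 1955 for the other RNA. The medians of that array were close to this, at 4377 and 1358, and the untested Gpx3 read 5598 and 1712. How far the 0.020 measures Prdx5 was not tested. Both the mean and the fit without the first array of replicate 1 use this value. The mean was 0.88 ± 0.32 (SD, n = 2), or 1.84-fold higher than in the RNA labelled CD24hi (interval 0.50 to 1.27, adjusted p = 0.00714). Leaving out that dye swap raised it to 1.20 (adjusted p = 0.000136), whereas leaving out the first array of the same replicate gave 0.56 (adjusted p = 0.333), which is not a call. Prdx6 did not pass the test. Its values were -0.16, -0.32, -0.13 and -0.40, all below 0, with a mean of -0.25 ± 0.019 (SD, n = 2; interval -0.55 to 0.053, adjusted p = 0.145).

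Of the glutathione peroxidases, Gpx2, the form of the gut epithelium, was called lower in the RNA labelled Lgr5-GFP. Its log2 ratios were -0.75 and -0.73 in replicate 1 and -0.15 and -0.41 in replicate 2. Both arrays of replicate 1 lay below both of replicate 2, and all 4 were below 0. The mean of -0.51 ± 0.33 (SD, n = 2; 1.42-fold lower, interval -0.90 to -0.12) had an adjusted p of 0.0424, close to the threshold. The call was lost without the first array of replicate 1 (-0.51, adjusted p = 0.408) and without the dye swap of replicate 2 (-0.44, adjusted p = 0.109).

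Gpx1, the cytosolic form, did not pass, at 0.37 ± 0.30 (SD, n = 2; interval -0.013 to 0.74, adjusted p = 0.100). Its arrays stood at 0.49, -0.19, 0.57 and 0.59, so that 3 lay close together above 0 and the dye swap of replicate 1 fell below 0. Without that dye swap Gpx1 was called higher, at 0.54 (adjusted p = 0.00471). Gpx4, the lipid hydroperoxidase, did not pass either, at -0.19 ± 0.19 (SD, n = 2; interval -0.52 to 0.14, adjusted p = 0.291). Of its values, -0.049, -0.60, -0.054 and -0.057, only the dye swap of replicate 1 was far from 0, and without it the ratio was -0.051 (adjusted p = 0.71). Gpx3, the plasma form, was not well above background in either population on 3 of the arrays, with spot brightness of 95.7, 82.1 and 148 in the RNA labelled Lgr5-GFP over local backgrounds of 53, 49 and 126.5, and of 161, 148 and 85.6 in the RNA labelled CD24hi over 125, 137 and 50. On the dye swap of replicate 1 its brightness was 5598, on a spot that was marked as an outlier, and no ratio is given for this gene.

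The members with more than 1 probe were Prdx2, Prdx4 and Prdx6. All 3 Prdx2 probes were below 0, at -0.61 for the bright probe, -0.23 for the intron-crossing probe printed above (adjusted p over probes 0.164) and -0.36 for the third (0.064), so only the bright one passed. The intron-crossing probe had no usable spot on the dye swap of replicate 1. On the other 3 arrays the bright probe ran from -0.53 to -0.31, the intron-crossing probe from -0.27 to -0.18 and the third from -0.31 to -0.20. The second Prdx4 probe, which carries the accession of a cDNA clone in the files, had a ratio of -0.41 (adjusted p over probes 0.0386). It cleared the background in the RNA labelled Lgr5-GFP on 2 of 4 arrays and in the RNA labelled CD24hi on all 4, so that it was tested only through the population in which it was brighter, and its ratio is given as a description beside the -1.11 of the first. Of the 4 Prdx6 probes, the ratios were -0.25, -0.34, -0.052 and, for a probe not clear of the background, 0.083, and no probe passed. The probe at -0.34 cleared the background in the RNA labelled Lgr5-GFP on 2 of 4 arrays.

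**Figure D2:**
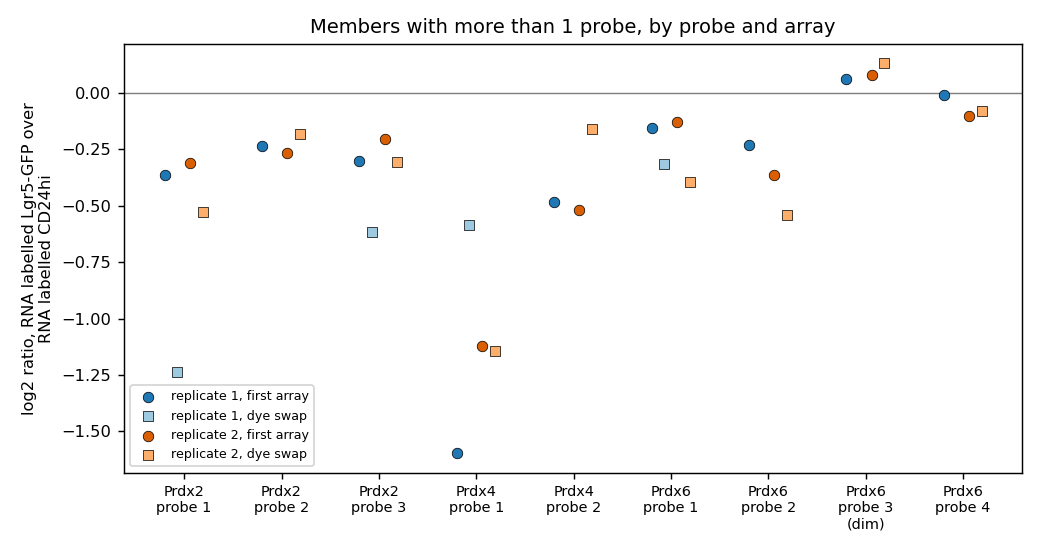
Log2 ratio (y axis, the RNA labelled Lgr5-GFP relative to that labelled CD24hi) of each probe of Prdx2, Prdx4 and Prdx6 (x axis) on each array with a usable spot (circles, first arrays; squares, dye swaps; dim marks the probe that was not clear of the background). The first Prdx4 probe lies between -1.60 and -0.59 and its second between -0.52 and -0.16, and the dim Prdx6 probe is the one above 0.

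The members differed in how closely the replicates came together. Replicate 1 and replicate 2 gave Prdx5 ratios of 0.66 and 1.11, Gpx2 ratios of -0.74 and -0.28 and Prdx2 ratios of -0.80 and -0.42, whereas Prdx4 (-1.09 and -1.13), Prdx6 (-0.24 and -0.26) and Prdx3 (-0.40 and -0.36) were nearly alike in both. For Prdx4, however, replicate 1 is the average of arrays far apart, at -1.60 and -0.59, and for Prdx3 it is 1 array. Slide and replicate cannot be told apart, since a slide held 1 replicate. The 6 called members had the same sign in both replicates and on every array with a usable spot. So did Gpx4 and Prdx6, which were not called. The calls were made from these same values, so the shared sign adds nothing to them.

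**Figure D3:**
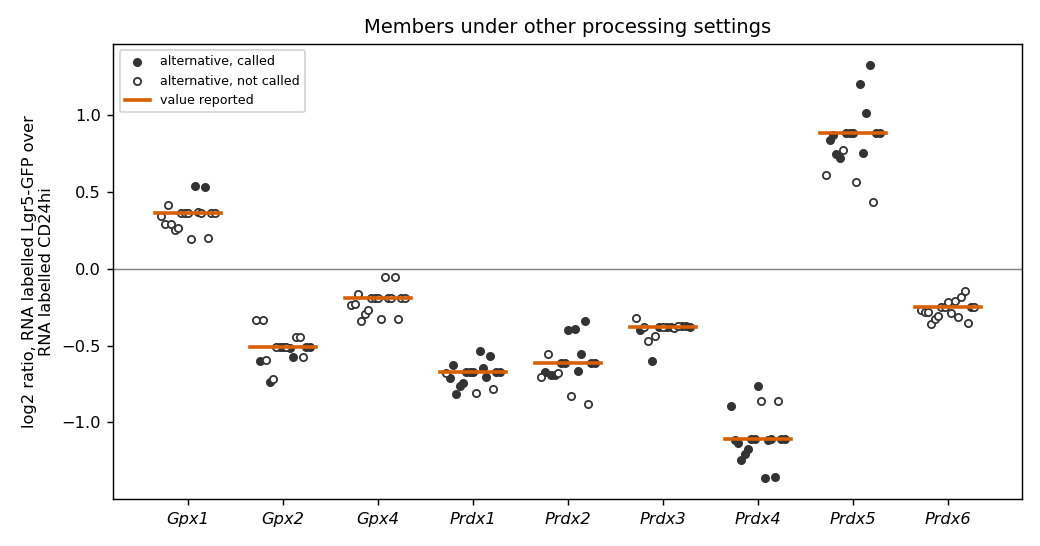
Log2 ratio (y axis, the RNA labelled Lgr5-GFP relative to that labelled CD24hi) of each tested member (x axis) as reported (orange line) and under the other processing settings (points; filled where the adjusted p was under 0.05). No member changes sign, and the Prdx5 points run from 0.44 to 1.33 and the Prdx4 points from -1.36 to -0.76.

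The other genes of the pathway were taken from 10 lists with 117 genes, of which 104 were tested and 37 were higher, 29 lower and 38 not called, with a median log2 ratio of 0.04. Over all genes tested 21.7% were higher and 25.5% lower. The counts of each list below are to be read against these shares, and no list was tested as a set. Without the first array of replicate 1 the 66 calls became 16. Of the genes named below, Sesn1, Sesn3, Nxn, Gsr, Idh1, Chac1, Gsta3, Maff, Hmox1, Bach1, Sepsecs, Secisbp2, Selenoi, Gpx7, Gpx8, Qsox1, Gch1, Alox5, Lpcat3, Tfrc, Noxa1, Nox1, Duoxa2, Zg16, Fcgbp, Thy1, Cd14, Pdgfrb and Col1a2 had no value on the dye swap of replicate 1, so that their replicate 1 was not dye-balanced. In the thioredoxin system, which restores peroxiredoxins, 2 of 12 genes were higher and 3 lower (median -0.13). Txnrd1, the cytosolic thioredoxin reductase, was lower at -1.12 ± 0.30 (SD, n = 2), as were Txnip, an inhibitor of thioredoxin, at -0.54 ± 0.33 and Sesn3, a stress-responsive sestrin, at -1.91 ± 0.029. Nxn, a thioredoxin-like protein, was higher at 1.90 ± 0.22, and Sesn1 at 0.52 ± 0.35. Txn1 and Txn2, the cytosolic and mitochondrial thioredoxins themselves, were not called, at -0.15 and -0.18, and neither was Srxn1, the sulfiredoxin that repairs overoxidised peroxiredoxins, at 0.21.

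Of 19 tested genes of glutathione synthesis and recycling and of NADPH supply, 10 were lower in the RNA labelled Lgr5-GFP and 2 higher (median -0.41). Gsr, which regenerates glutathione for the glutathione peroxidases, stood at -1.15 ± 0.34 (SD, n = 2). Taldo1, of the pentose phosphate pathway, stood at -1.21 ± 0.35 and Idh1, a cytosolic source of NADPH, at -1.04 ± 0.40. The higher pair were Chac1, which degrades glutathione, at 2.23 ± 0.50 (above background in the RNA labelled CD24hi on 3 of 4 arrays) and Slc3a2, a subunit of amino acid transporters, at 0.74 ± 0.34. Of the 4 tested genes among superoxide dismutases, their copper chaperone and catalase, Sod1 was lower at -0.83 ± 0.013 (SD, n = 2) and its chaperone Ccs at -0.45 ± 0.24. Cat, which also removes hydrogen peroxide, was not called at -0.27, nor was the mitochondrial Sod2 at 0.27.

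Among 15 regulators and targets of Nrf2, the factor that acts through the element sought above, 5 were lower and 3 higher (median 0.12). Of all genes tested, 25.5% were lower and 21.7% higher. Because the list mixes targets with regulators, among them a repressor, its counts give no direction for Nrf2 activity, which was not tested. Nfe2l2, the gene for Nrf2 itself, was lower at -1.16 ± 0.24 (SD, n = 2). The lower ones also included the detoxifying enzymes Gsta3 (-3.27 ± 0.56, SD, n = 2) and Nqo1 (-1.66 ± 0.11) and the small Maf protein Maff (-1.94 ± 0.24). The higher ones were Hmox1, which degrades haem, at 0.89 ± 0.24, the ferritin subunit Fth1 at 0.77 ± 0.054 and the repressor Bach1 at 0.49 ± 0.25.

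Selenium genes bear on the glutathione peroxidases. Of 10 genes that make selenocysteine or insert it, 3 were lower and none higher (median -0.12): Sepsecs at -0.44, Secisbp2 at -0.42 and Pstk at -0.40. Of 13 tested genes in the list of other selenoproteins, 8 were higher and 2 lower (median 0.57). The largest were Selenom (2.03 ± 0.57, SD, n = 2) and Selenos (1.60 ± 0.59), both of the endoplasmic reticulum, and Selenop (1.63 ± 0.075), a secreted selenium carrier, while Selenoh (-0.81 ± 0.14) and Selenoi (-0.40 ± 0.10) were lower. Selenoproteins kept in the other lists around the members do not enter these counts. Of them Txnrd1 was lower at -1.12 and the others tested were not called. Of the further glutathione peroxidases, Gpx7, which resides in the endoplasmic reticulum, was higher at 1.06 ± 0.11, Gpx8 was not called at -0.15 (with the RNA labelled Lgr5-GFP above background on 2 of 4 arrays), and Gpx5 and Gpx6 were not tested.

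All 14 tested genes of oxidative protein folding in the endoplasmic reticulum, the compartment in which the lower member Prdx4 works, had higher levels in the RNA labelled Lgr5-GFP (median 1.32). They included Qsox1 (3.40 ± 0.11, SD, n = 2), a sulfhydryl oxidase, and Agr2 (3.34 ± 0.69), a disulfide isomerase that also counts among the goblet markers used here. Of 8 tested genes of lipid peroxidation and ferroptosis, the field of Gpx4, 6 were higher and 1 lower (median 0.75). Gch1, which makes the antioxidant cofactor tetrahydrobiopterin, stood at 2.42 ± 0.099 (SD, n = 2), Alox5, a lipoxygenase, at 2.14 ± 0.49 (above background in the RNA labelled CD24hi on 2 of 4 arrays) and Lpcat3, which loads membranes with polyunsaturated fatty acids, at 1.31 ± 0.28, and the transferrin receptor Tfrc was the lower one at -1.30 ± 0.29. Of 7 tested NADPH and dual oxidase genes, which produce superoxide and hydrogen peroxide, Cyba (-0.96 ± 0.38), Noxa1 (-0.68 ± 0.32) and Nox1 (-0.98 ± 0.15) were lower and the maturation factor Duoxa2 (1.05 ± 0.069) was higher. Nox1 cleared the background in the RNA labelled Lgr5-GFP on 1 of 4 arrays and in the RNA labelled CD24hi on all 4. Nox1, Alox5 and Chac1 were each tested only through the population in which they were brighter, so their ratios are given as descriptions.

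**Figure D4:**
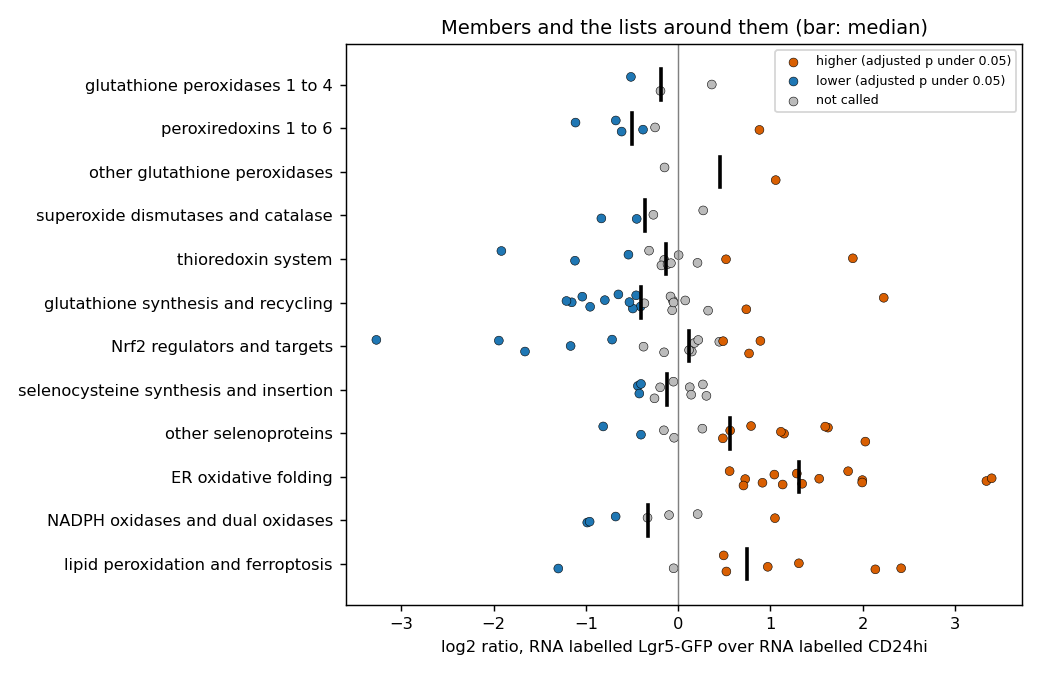
Log2 ratio (x axis, the RNA labelled Lgr5-GFP relative to that labelled CD24hi) of the tested members and of the genes in the 10 lists around them (rows; each point a gene, orange where called higher, blue where called lower, grey where not called; black bar, median). All 14 genes of oxidative folding lie above 0, and 5 of the 6 peroxiredoxins lie below it.

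Markers of other cells moved with the comparison. Of 9 tested crypt stem cell markers 8 were lower in the RNA labelled Lgr5-GFP and none higher, of 10 goblet markers 7 were higher and none lower, and all 16 cell cycle genes were lower (median -2.15). Of these, Lgr5 and Axin2 (3 of 4 arrays) and Aurkb (2 of 4) did not clear the background throughout in the RNA labelled Lgr5-GFP. They did so on all 4 arrays in the RNA labelled CD24hi, so they were tested only through that population. The 3 goblet markers not called were Tff3 (-0.95 ± 1.13, SD, n = 2), Zg16 (0.30 ± 0.71) and Fcgbp (0.10 ± 0.72). Normalized signals of the tested markers were summed on the 3 arrays without the dye swap of replicate 1. For the goblet markers the sum was 607600 to 915200 in the RNA labelled Lgr5-GFP and 62640 to 126900 in the RNA labelled CD24hi. For the stem cell markers it was 8943 to 9784 and 29400 to 33650. None of 4 tested red blood cell markers was called, at a median of 0.06. The normalized signals of these 4 summed to 1041 to 1082 and 965 to 1092 in the same order of populations, a measure that bears on Prdx2. Of the tested T and NK, B, myeloid and stromal markers (4, 1, 4 and 4), Thy1 (-0.48, with the RNA labelled Lgr5-GFP above background on 2 of 4 arrays), Cd14 (-0.40) and Pdgfrb (-0.46) were lower and Col1a2 (0.44) was higher. Thy1 was tested only through the RNA labelled CD24hi. On the same 3 arrays 4 of 9 red blood cell, 2 of 9 T and NK, 1 of 6 B, 4 of 12 myeloid and 6 of 12 stromal markers on the array were never well above background. The part of these cell types and of cycling cells in the members' ratios was not tested.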

How the data were processed

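Each of the 4 arrays was read with Feature Extraction 10.5.1.1, per the file headers. The deposited intensity values were each spot's mean brightness and local background in green and red, without normalization. A deposited log10 ratio gave red over green after the software's own processing. The values in the deposited series table were log2 ratios (red over green), as set against it by correlation (r of 0.977, 0.923, 0.950 and 0.986 across probes, column medians of -0.0034, 0.032, -0.0033 and -0.014). Swapped columns were not turned in it, with a normalization not given in the sources used here. No spot was saturated.

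Background was corrected with normexp (offset 50) in limma 3.58.1 (R 4.3.3), with 74 spots of non-uniform background left out before the fit, and arrays were normalized by loess with control spots at weight 0. Spots marked as outliers were left out, which left 9142 of 14801 tested genes without a value on the dye swap of replicate 1. Ratios were turned so that RNA labelled Lgr5-GFP stood over that labelled CD24hi, an array and its swap were averaged, and limma tested the 2 replicate ratios against 0 (2-sided, 1 residual degree of freedom, 4.5 prior degrees of freedom, adjusted p under 0.05). A probe was tested where 1 population or both stood well above background throughout the 4 arrays, a rule that rests on the other 3 arrays because nearly every spot passed on the dye swap of replicate 1, and the brightest such probe stood for its gene. The marker sums used each channel's signal rebuilt after background correction and loess, with mean brightness also quantile-normalized between arrays. Names came from RefSeq (GRCm38.p6) for 27041 gene spots and from the files for 16338. The number of arrays limits the precision. The replicate averaging and the limma fit were tested on simulated ratios. These had few changed genes and no missing values, unlike the arrays here, and the earlier steps were not tested in this way. As a further check, 17 alternatives were run.

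The members, the lists and the handling of marked spots and backgrounds were chosen with earlier results of these data known. Named were all members, up to 3 called genes per list and direction by size, the sort markers, and the few genes behind small counts. Txn1, Txn2, Srxn1, Cat, Sod2 and Nfe2l2 were named for their role after their values were seen.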

Additional observations from a re-analysis of the deposited data

Results flagged for a closer look

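For 2 of the 8 members with a value on all 4 arrays, the gap from 1 array to the nearest of the others was above Dixon's critical share of the whole range, and in both that array was the dye swap of replicate 1. Gpx1 stood at -0.19 there, against 0.49 to 0.59 on the other arrays. Gpx4 stood at -0.60 there, against -0.057 to -0.049. Chance sets about 1 in 20 such groups of 4 apart.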

How the results depend on the processing

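Over 17 alternatives no member changed sign. Prdx4 was called in 15 of 17, Prdx1 in 14, Prdx5 in 13, Prdx2 in 12, Gpx2 in 8 of 17 and Prdx3 in 8 of 15, and of the members not called Gpx1 passed in 2, Prdx6 in 1 and Gpx4 in 0. Adjusted p ran from 0.000192 to 0.0866 for Prdx4 and from 0.000136 to 0.5 for Prdx5. Of 6985 calls, 1387 (9.37% of genes tested) were left with normexp fitted on all spots and 3731 (25.2%) with marked spots kept. With dye swaps alone 969 were left (16.1% of 6021 tested). Members called went from 6 to 1, 2 and 0 under these settings (higher: 0, 0 and 0; lower: 1, 2 and 0; with dye swaps alone 3 had an unadjusted p under 0.05 by limma), and pathway list calls from 66 to 21, 42 and 15. The software's processed signals gave 3 members called (2 lower), with 48.9% of all genes called. The series table gave 4 members (3 lower) and 47.4% of all genes. First arrays alone gave 6 members (2 higher, Gpx1 and Prdx5) and 55.8% of all genes. Leave-one-out over single arrays gave 983 to 8542 calls, 0 to 7 members called, 0 to 2 higher and 0 to 5 lower, and 16 to 73 pathway list calls. The lowest of each came without the first array of replicate 1, where 6022 genes could be tested, and the highest total without the dye swap of that replicate. Median centring moved the median of all genes from -0.07 to -0.25 and the split from 3205 higher and 3780 lower to 2218 and 5424, with the same member counts (1 higher, 5 lower). The cause of these changes was not tested. With slide as a random block and a dye term, as planned, 4 arrays could not be fitted, so this was not run. Without the dye term, an alternative chosen after seeing the data, 7 members and 55.6% of all genes were called, against 47.2% as reported. That fit estimated the correlation within a slide at -0.042, so the 4 arrays counted nearly as independent although a dye swap is a technical repeat. Estimating the spread over all kept probes, also chosen after seeing the data, gave 6 members, with 48.3% of all genes called.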
